A study of Homo sapiens with 29 samples.

Results

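The comparison described here is between a long and a short light pulse given to otherwise identical nuclei. Its members are the 8 columns of the Mps1i/DMSO count table, 4 from nuclei that received an 800 ms pulse and 4 from nuclei that received a 200 ms pulse. They stand for 12 of the 29 deposited samples, since each library of experiment 2 is listed as 2 parts, and its column is taken here to hold both, which is read from the names and not stated in the sources used here. The cells were hTERT RPE-1 (RPE1), a telomerase-immortalised human retinal pigment epithelial line, in the RFP703/Dendra version that carries a fluorescent histone H2B and a nuclear form of the photoconvertible protein Dendra2. In each of 2 experiments cells were kept for 24 h in DMSO, the solvent control, or in 100 nM Mps1i (BAY1217389), an inhibitor of the Mps1 kinase of the spindle checkpoint. All of them, the DMSO cells included, also received the Cdk1 inhibitor RO-3306 shortly before imaging. Nuclear masks were assigned at random to either pulse, cells were then sorted on the ratio of red to green Dendra2, and RNA was sequenced from each sorted bin. The 200 ms and the 800 ms library of one experiment and treatment form a pair, which gives 4 pairs. A longer pulse and its sorting gate always went together, so the light and the sort cannot be told apart.

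In visual cell sorting, light converts Dendra2 from green to red inside chosen nuclei, so pulse length acts as the label by which cells are later separated. Short-wavelength light can be absorbed by cellular pigments and generate reactive oxygen species, and DNA damage of many kinds activates the transcription factor p53. p53 then raises transcription of CDKN1A, which encodes the Cdk inhibitor p21, and of MDM2, the ubiquitin ligase that limits p53 itself. The comparison therefore asks whether the label alone leaves a mark in the RNA. Members of stress, repair and growth pathways were examined from 26 gene lists, of which 24 had at least 1 measured member.

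The libraries of experiment 1 held 65608678 to 74914744 counts and those of experiment 2 held 133622809 to 145242185, with the higher total at the short pulse in 3 of 4 pairs. Of 18 genes listed as markers of retinal pigment epithelium 4 were in the table (EZR, SLC16A3, MITF and OTX2), whereas RPE65 and BEST1 were not. How specific EZR and SLC16A3 are to that tissue was not tested. All 12 markers of the RPE1 line were measured, among them ANXA2 and VIM, together with 3 of 6 neuronal markers, 0 of 9 blood markers and 0 of 7 endothelial markers. The deposited table keeps a gene only where 2 or more libraries reach 700 counts, so a marker missing from it was not analysed here. Levels are given in CPM, counts relative to the TMM-scaled library size, and are not corrected for gene length, so they compare libraries and not genes.

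Few genes differed between the pulses. The test over both treatments, with a block for each of the 4 pairs (edgeR's quasi-likelihood test, adjusted p under 0.05), called 1 of 10577 genes, or 0.00945%, and that identifier was higher with the long pulse. At an unadjusted p under 0.05 it returned 301 genes (2.85%), of which 169 were higher and 132 lower. DESeq2 with the same block called 2 genes and limma-voom 1. The median difference was 0.0002 on the log2 scale, and 50.2% of genes lay above 0. In 10484 genes (99.1%) the 95% interval of the difference lay inside a 1.5-fold change in either direction. The median interval reached 0.11 to each side on the log2 scale, a 1.08-fold difference. Fitted differences above 1.5-fold were seen in 26 genes, and 15 of those 26 carry identifiers outside the primary GENCODE annotation.

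**Figure D1:**
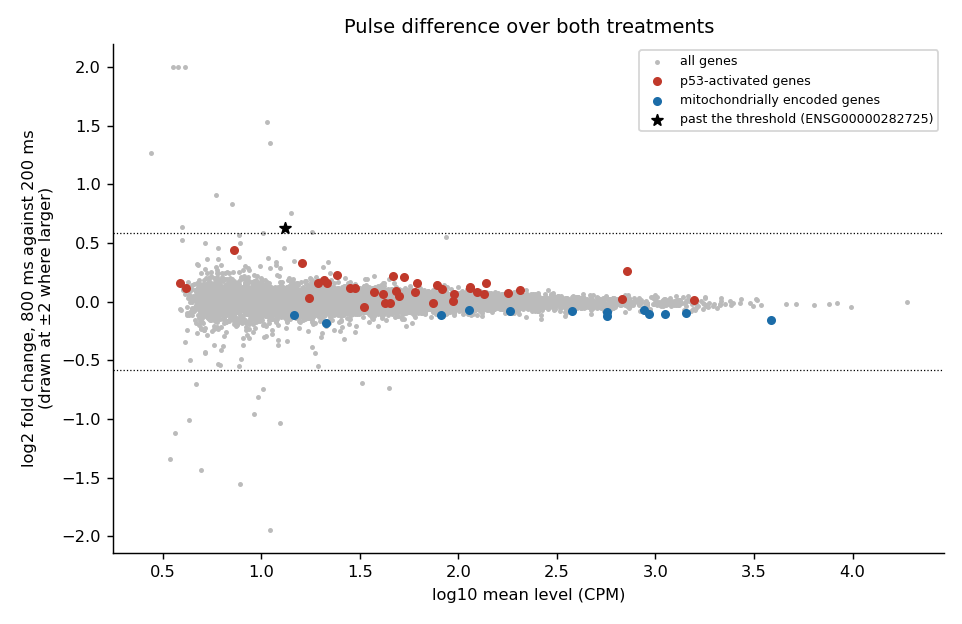
Fitted log2 fold change of 800 ms against 200 ms over both treatments (vertical) plotted against the log10 of the mean level in CPM (horizontal) for all 10577 genes, with p53-activated genes in red, mitochondrially encoded genes in blue and the 1 called identifier as a star. Dotted lines mark a 1.5-fold change, which 26 genes exceed, and CDKN1A, at 0.26, lies inside them.

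Set beside the other factors of the design, the pulse was small. The median absolute effect on log2 CPM was 0.092 for treatment, 0.078 for experiment and 0.032 for pulse. The terms that join pulse with treatment, with experiment and with both had medians of 0.032, 0.039 and 0.039, close to that of the pulse itself. Effects above 1.5-fold were found for 131 genes with treatment, 67 with experiment and 27 with pulse. Across genes, the differences of the 4 pairs correlated with Pearson's r between -0.22 and 0.073 and Spearman's rho between -0.26 and 0.17, given as a description over genes, which are not replicates. The difference had the same sign in all 4 pairs in 1112 genes (10.5%), 564 higher (5.33%) and 548 lower (5.18%).

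CDKN1A was the gene with the second smallest p over both treatments. In DMSO it stood at 409 and 423 CPM after the short pulse and at 485 and 548 CPM after the long pulse. In Mps1i it stood at 858 and 951 CPM after the short pulse and at 973 and 1113 CPM after the long pulse. Within each treatment both long-pulse libraries lay above both short-pulse libraries, while the treatments themselves did not overlap. The fitted log2 fold change was 0.26 (SE 0.035), a 1.2-fold difference with a 95% interval from 1.13 to 1.26, and edgeR's adjusted p was 0.152, so it did not pass. DESeq2 with the same block gave 0.26 with an adjusted p of 3.1e-08. Pair differences were 0.25 and 0.37 in DMSO and 0.18 and 0.23 in Mps1i.

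**Figure D2:**
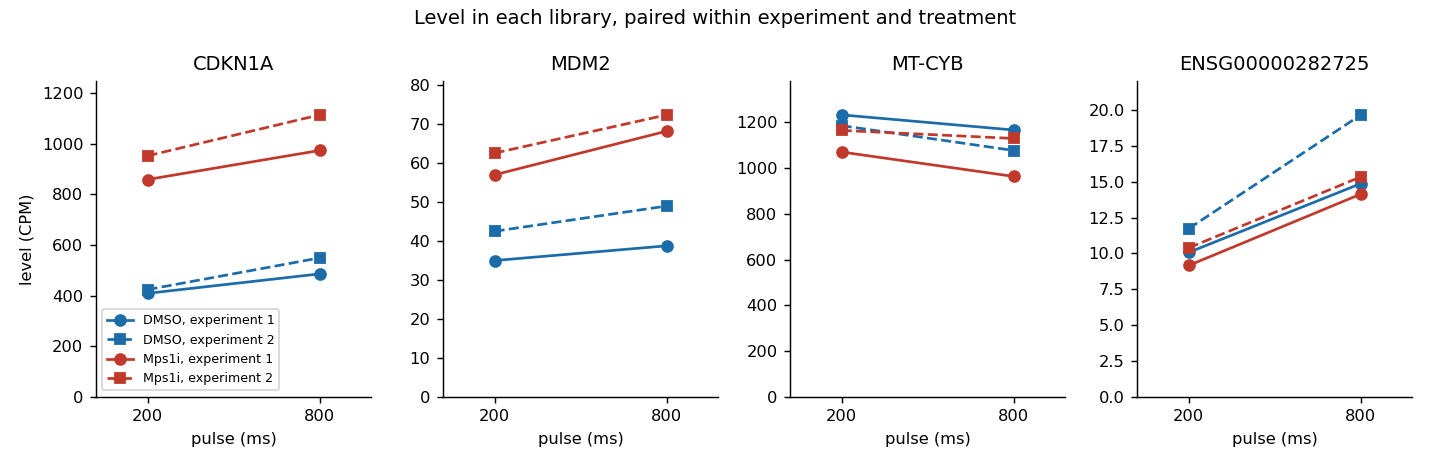
Level in CPM (vertical, starting at 0) of CDKN1A, MDM2, MT-CYB and ENSG00000282725 in each of the 8 libraries at 200 ms and 800 ms (horizontal), with a line joining the libraries of one experiment and treatment (blue DMSO, red Mps1i). CDKN1A, MDM2 and ENSG00000282725 are higher at 800 ms in 4 of 4 pairs, and MT-CYB is lower in 4 of 4.

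The same pulses were used in a separate table of Mps1i cells sorted by micronucleus status (MN- and MN+), which shares no library with this one. There the 200 ms and 800 ms libraries of one class came from different wells, and the pairs of one experiment share those wells. CDKN1A was higher after the long pulse in 4 of 4 of these pairs, by 0.28 and 0.21 in MN- and by 0.19 and 0.23 in MN+ on the log2 scale. Because these pairs share wells they are not 4 independent units, and no test is given. CDKN1A was followed up with its values in the Mps1i/DMSO table known. Of 10449 genes in both tables, 17 (0.163%) were higher in all 8 pairs and 33 (0.316%) lower in all 8.

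The other p53-activated genes lay mostly on the same side as CDKN1A, without any of them passing. Of 41 listed genes 37 were measured, 33 had a fitted difference above 0 and 0 passed the adjusted threshold in edgeR. At an unadjusted p under 0.05, 17 were higher and 0 lower, where 1.6% and 1.25% of all genes were. The median over the list was 0.11 on the log2 scale, beside 0.0002 over all genes. Medians within pairs were 0.060 and 0.116 in DMSO and 0.123 and 0.109 in Mps1i, all above 0. In the micronucleus table they were 0.166 and 0.037 in MN- and 0.103 and 0.083 in MN+. This pattern was already known in part when the list was chosen. In bulk samples, fewer cells of a kind and less RNA per cell cannot be told apart.

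Among the feedback regulators of p53, MDM2 stood at 34.9 and 42.4 CPM in the short-pulse and at 38.7 and 48.9 CPM in the long-pulse DMSO libraries. In Mps1i it stood at 56.9 and 62.5 CPM after the short and at 68.1 and 72.3 CPM after the long pulse. Its log2 fold change was 0.21 (SE 0.039, adjusted p 1.00 by edgeR, unadjusted p 0.000416), with pair differences between 0.15 and 0.26. Its levels in the micronucleus table were higher in 2 of 4 pairs. PPM1D, the phosphatase that switches p53 off, differed by 0.18 (95% interval 0.077 to 0.292), and it too was higher in 4 of 4 pairs here and in 2 of 4 there.

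Genes that slow growth or arrest the cycle came next. BTG2, an antiproliferative factor, had the largest fitted difference of the list, 0.44 (SE 0.12). It stood at 2.04 and 4.58 CPM in the short-pulse against 3.88 and 6.55 CPM in the long-pulse DMSO libraries, and at 7.59 and 11.5 against 9.12 and 12.7 CPM in Mps1i. The groups overlap within each treatment because the experiments differ, but every pair has the higher value at 800 ms. SESN1, a stress-induced inhibitor of mTORC1, differed by 0.33 (95% interval 0.157 to 0.504), and GADD45A, a growth-arrest and repair factor, by 0.16 (SE 0.044). PLK3, a stress-activated Polo kinase, and ZMAT3, an RNA-binding p53 target, differed by 0.14 and 0.16. With CDKN1A they were the 3 listed genes higher in all 8 pairs of both tables, as were 0.163% of all genes in both.

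Genes for nucleotide supply, death and repair were less uniform. RRM2B, the p53-inducible subunit of ribonucleotide reductase, differed by 0.22 (SE 0.053). FAS, a death receptor, stood at 86.4 and 99.1 CPM in the short-pulse and at 90.1 and 106 CPM in the long-pulse DMSO libraries, and differed by 0.11 (SE 0.034). XPC and POLH, the damage sensor of excision repair and the polymerase that copies past UV lesions, differed by 0.11 and 0.093. Other well-known targets were closer to 0. BAX, the pore-forming death protein, differed by 0.010 (95% interval -0.066 to 0.086), DDB2, a UV-lesion sensor, by 0.030 (-0.096 to 0.156) and TP53I3 by -0.0084.

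**Figure D3:**
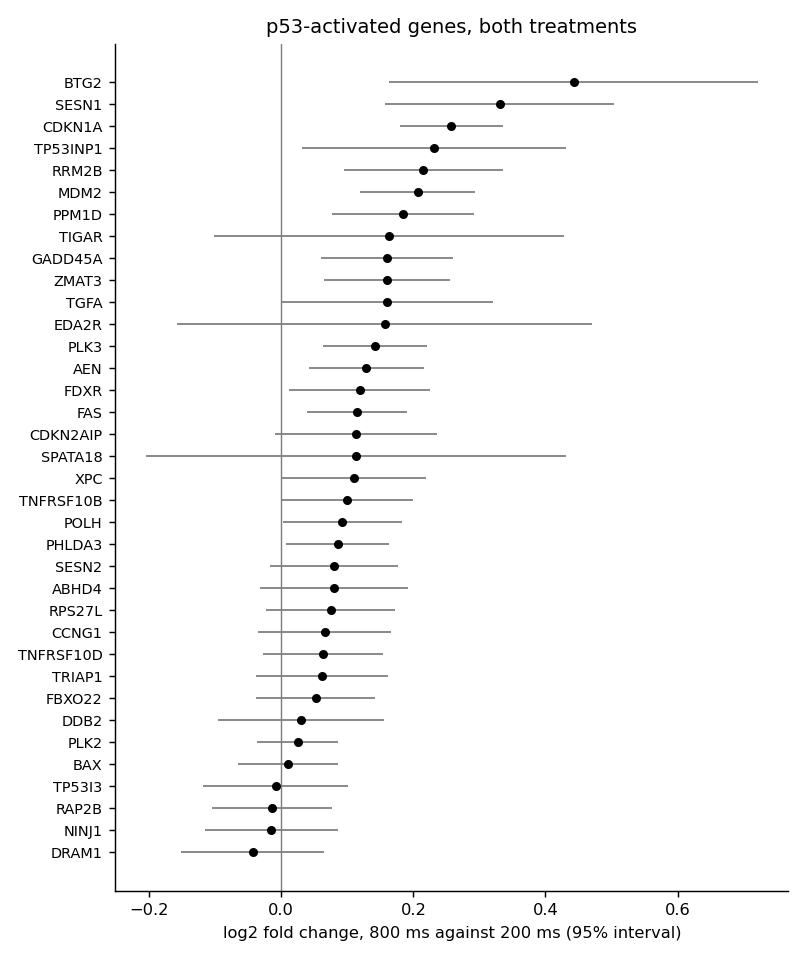
Fitted log2 fold change of 800 ms against 200 ms (horizontal, points) with its 95% interval (bars) for 36 of the 37 measured p53-activated genes, ordered by size. Of those drawn, 32 lie above 0, and the intervals of 17 exclude 0 before any adjustment.

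Mitochondrially encoded transcripts lay on the other side. These 13 genes encode subunits of the respiratory chain and of ATP synthase, and all 13 had a fitted difference below 0, with a median of -0.10 (-0.18 to -0.067). None passed the adjusted threshold in edgeR, 7 were lower at an unadjusted p under 0.05 (1.25% of all genes), and 6 were lower in all 4 pairs (5.18% of all genes). MT-CYB, the cytochrome b of complex III, stood at 1233 and 1186 CPM after the short and at 1167 and 1077 CPM after the long pulse in DMSO, and at 1071 and 1165 against 964 and 1130 CPM in Mps1i. In DMSO both long-pulse libraries lay below both short-pulse libraries, and in Mps1i the pulse groups overlapped. The value was lower at 800 ms in each pair, with pair differences from -0.15 to -0.044 on the log2 scale. MT-CO3, of complex IV, differed by -0.11 (SE 0.027). MT-CO1, of complex IV, was the least even of the 13, with pair differences of -0.69 and -0.19 in DMSO and 0.34 and -0.099 in Mps1i.

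Unlike the p53 list, the mitochondrial list kept no direction elsewhere. Its pair medians were -0.0021 and -0.150 in DMSO and -0.152 and -0.068 in Mps1i, and in the micronucleus table they were 0.126 and -0.613 in MN- and 0.050 and 0.499 in MN+. The 76 nuclear genes of oxidative phosphorylation had a median of -0.017, with 60 below 0 and 0 at an unadjusted p under 0.05. Among 78 genes for cytosolic ribosomal proteins the median was -0.0087. In the DMSO pair of experiment 1 both of these lists were higher after the long pulse (medians 0.106 and 0.124), and in the other 3 pairs both were lower (-0.042 and -0.0093, -0.077 and -0.097, -0.046 and -0.036). The 740 nuclear genes spanning under 5 kb had pair medians of 0.074 and -0.028 in DMSO and -0.082 and -0.028 in Mps1i. For the 1949 genes spanning 100 to 500 kb they were -0.043 and 0.040 in DMSO and 0.017 and 0.026 in Mps1i. The part of gene span in the list medians was not tested. By treatment, 70 of the 78 ribosomal protein genes lay above 0 in DMSO (median 0.056) and 3 of 78 in Mps1i (median -0.069). For the difference between treatments their median was -0.13, and 17 of them had an unadjusted p under 0.05, as did 2.22% of all genes, with 0 past the adjusted threshold in edgeR. ATP5F1B, the catalytic beta subunit of ATP synthase, and RPS2, of the small ribosomal subunit, differed by -0.045 and -0.022.

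**Figure D4:**
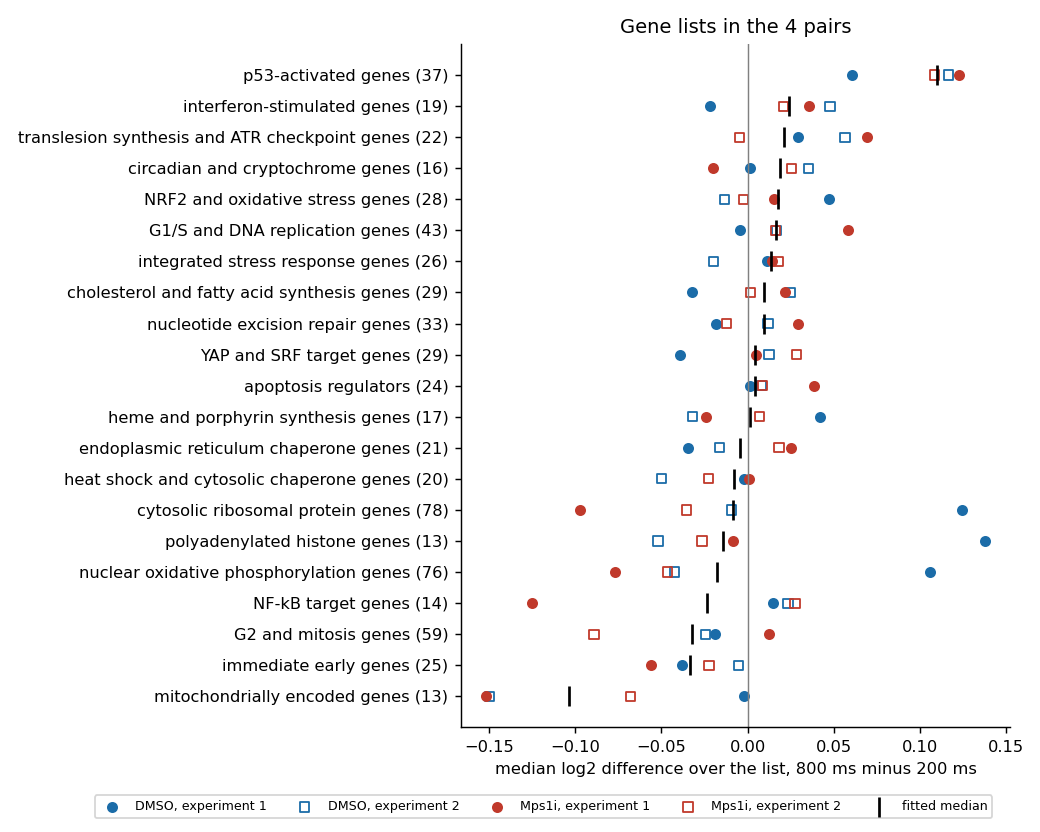
Median log2 difference, 800 ms minus 200 ms (horizontal), of 21 gene lists in each of the 4 pairs (blue DMSO, red Mps1i; circles experiment 1, squares experiment 2), with the fitted median as a black bar and the number of measured genes in parentheses. Only the p53-activated list has its 4 medians above 0.05. The ribosomal protein, oxidative phosphorylation and polyadenylated histone lists place the DMSO pair of experiment 1 apart from the other 3.

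Other lists of repair and stress genes had medians close to 0. The 33 genes of nucleotide excision repair, the pathway that removes UV lesions, had a median of 0.0093. At an unadjusted p under 0.05, 2 of them were higher and 0 lower. The 22 genes of translesion synthesis and ATR signalling had a median of 0.021, with 3 higher and 0 lower at that level. Over all genes 1.6% were higher and 1.25% lower. In all 4 pairs 4 of these 22 genes were higher and 1 lower, against 5.33% and 5.18% of all genes. Of the second list, REV3L, a subunit of polymerase zeta differed by 0.12 (SE 0.048) and CLSPN, the adaptor of Chk1 activation, by 0.12 (SE 0.043). CDK7, a kinase of TFIIH and 1 of those 2 excision repair genes beside XPC, had a fitted difference of 1.53 (SE 0.60) with pair differences from -0.20 to 4.68. It was higher in 3 of 4 pairs here and in 2 of 4 pairs of the micronucleus table.

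Oxidative and protein stress showed no common shift. The NRF2 and oxidative stress genes (28 measured) had a median of 0.018. GCLM, a subunit of the enzyme that starts glutathione synthesis, differed by 0.089 (SE 0.035), and FTH1 and FTL, the ferritin chains, by 0.017 and 0.030. The 20 heat shock genes had a median of -0.0076 and 0 at an unadjusted p under 0.05, with HSPA8 at -0.019 (95% interval -0.073 to 0.035). The 26 genes of the integrated stress response had a median of 0.013. The 21 genes of the endoplasmic reticulum chaperone list had one of -0.0043, among them HSPA5 (BiP) at -0.0043 and XBP1 at 0.088. At an unadjusted p under 0.05, 2 of these 21 were higher, DNAJB9 (0.12, SE 0.049) and XBP1, and 0 lower. The NRF2 and integrated stress response lists each had 1 higher and 0 lower. Over all genes 1.6% were higher and 1.25% lower.

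Immediate early genes, which respond to stimulation within minutes, had a median of -0.033, with 8 of 25 above 0. At an unadjusted p under 0.05, 2 were higher and 2 lower, where 1.6% and 1.25% of all genes were. BTG2, also on this list, had its largest fitted difference (0.44, SE 0.12) and was higher in 4 of 4 pairs. FOS ranged from 3.65 to 51.5 CPM over the 8 libraries, and most of that range lay between experiments. It stood at 51.5 and 5.33 CPM after the short and at 47.5 and 3.65 CPM after the long pulse in DMSO, and at 31.9 and 8.80 against 30.1 and 7.26 CPM in Mps1i, lower in 4 of 4 pairs (-0.24, SE 0.074). JUNB, its partner in AP-1, differed by -0.10 (SE 0.045) and was lower in 4 of 4 pairs. Neither passed, and in the micronucleus table FOS was higher in 2 of 4 pairs. NF-kB targets (14 measured) had a median of -0.023 and interferon-stimulated genes (19 measured) one of 0.024, with CXCL8, a chemokine, at -0.15 (95% interval -0.299 to 0.0049).

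Cell-cycle genes showed a slight lean. Of 59 genes of G2 and mitosis 50 had a difference below 0, with a median of -0.032, and 3 were lower at an unadjusted p under 0.05 (1.25% of all genes). The pair medians were -0.019 and -0.024 in DMSO and 0.012 and -0.089 in Mps1i, so 1 pair lay on the other side and 1 stood apart. CDC20, the activator of the anaphase-promoting complex, stood at 673 and 712 CPM after the short and at 645 and 670 CPM after the long pulse in DMSO, and at 506 and 446 against 453 and 405 CPM in Mps1i (-0.11, SE 0.029). PLK1, the mitotic Polo kinase, differed by -0.10 (SE 0.032). CDC20, PLK1 and PRC1, a spindle midzone protein, were the 3 genes of this list lower in all 8 pairs of both tables, PRC1 by -0.035. Among all genes present in both tables, the share lower in all 8 pairs was 0.316%. Of 43 genes of G1/S and replication 28 lay above 0, with a median of 0.016, led by CCNE2 (cyclin E2) at 0.14 (SE 0.045). At an unadjusted p under 0.05, 4 of the 43 were higher and 0 lower, against 1.6% and 1.25% of all genes. In all 4 pairs 6 were higher and 0 lower, against 5.33% and 5.18%. None of these genes passed the adjusted threshold in edgeR.

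The remaining lists had medians between -0.014 and 0.019. They were cholesterol and fatty acid synthesis (0.0094), circadian genes and cryptochromes (0.019), heme and porphyrin synthesis (0.0013), YAP and SRF targets (0.0044), polyadenylated histones (-0.014) and apoptosis regulators (0.0044). The polyadenylated histones had pair medians of 0.138 and -0.052 in DMSO and -0.0085 and -0.026 in Mps1i. ACTB, which encodes beta-actin, differed by -0.0013 (95% interval -0.040 to 0.038). PMAIP1, the BH3-only protein NOXA, was the apoptosis regulator with the second smallest p (0.13, SE 0.044), after FAS, which is also on the p53 list. Of the 24 apoptosis regulators 3 were higher and 0 lower at an unadjusted p under 0.05, against 1.6% and 1.25% of all genes. In all 4 pairs 4 were higher and 1 lower, against 5.33% and 5.18%. Markers of the RPE1 line had a median of -0.020, with VIM at -0.029, the 4 measured retinal pigment epithelium markers one of -0.0040 and the 3 neuronal markers one of -0.035. SLC16A3, a lactate transporter, was the one of these 4 with an unadjusted p under 0.05 (-0.10).

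The single call, ENSG00000282725, has an identifier outside the primary annotation and no name in the tables used here. It stood at 10.1 and 11.7 CPM in the short-pulse and at 14.9 and 19.7 CPM in the long-pulse DMSO libraries, and at 9.16 and 10.4 against 14.1 and 15.3 CPM in Mps1i, with no overlap between pulses. It rose by 0.62 (SE 0.066, adjusted p 0.0376 by edgeR's quasi-likelihood test), with pair differences between 0.56 and 0.74. It did not pass with length and GC offsets (adjusted p 0.0508 by edgeR), with no block (1.00) or in 6 of the 8 fits that left out a library. In the micronucleus table its differences were -0.42 and -0.83 in MN- and 0.68 and 0.074 in MN+, so the direction was not kept there.

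The other genes with the smallest p and the same sign in all 4 pairs did not pass. On the higher side these were PHRF1, a PHD and RING finger protein at chr11:576470-612222 (0.76, SE 0.15, with pair differences from 0.13 to 1.28), and ENSG00000274538 (0.21, SE 0.045). On the lower side they were EPHB6, a kinase-inactive Eph receptor (-0.49, SE 0.11), CORO7 (-0.39, SE 0.097), and the identifiers ENSG00000262826, ENSG00000274780 and ENSG00000285839 (-0.32, -0.21 and -0.25). Of these 7, 3 are outside the primary annotation, as are 33 of the 301 genes at an unadjusted p under 0.05. Identifiers outside the annotation made up 2.81% of all genes tested, and 11.1% of them had an unadjusted p under 0.05. Their pair differences spread more widely (median SD 0.186) than those of genes with under 5% of transcript windows shared with another gene (0.0924). Multi-mapping reads can be split between such copies by the quantification, and its part in these values was not tested.

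Within each treatment, edgeR made no call. In DMSO edgeR called 0 of 10577 genes (0%), with 210 (1.99%) at an unadjusted p under 0.05 (1.07% of all genes higher and 0.917% lower), while DESeq2 with the same block called 7, led by CDKN1A, and limma-voom 0. In Mps1i edgeR called 0 (0%), with 259 (2.45%) at an unadjusted p under 0.05 (1.1% higher and 1.35% lower), while DESeq2 called 6, led by VASN, and limma-voom 0. CDKN1A differed by 0.31 (SE 0.049, adjusted p 0.129 by edgeR) in DMSO and by 0.20 (SE 0.049, adjusted p 1.00) in Mps1i. In edgeR it passed in DMSO with a mean of at least 2000 counts (adjusted p 0.0109) or without identifiers outside the annotation (0.0250), and in Mps1i in the 4 libraries of that treatment alone (0.00452). The difference between these values was -0.11, with a 95% interval from -0.26 to 0.045. The p53 list had a median of 0.084 in DMSO, with 31 of 37 above 0 and 10 at an unadjusted p under 0.05, and of 0.105 in Mps1i, with 34 of 37 above 0 and 11 at that level. The 4 libraries of a treatment fitted alone leave 1 residual degree of freedom, and that fit called 23 genes in DMSO and 19 in Mps1i.

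The difference of the pulse effect between treatments was called in 2 genes of 10577 (0.0189%), RGPD5 and VASN, both lower in Mps1i, and 235 genes (2.22%) had an unadjusted p under 0.05, 0.841% higher and 1.38% lower. DESeq2 called 3 genes in that contrast and limma-voom 2. With an additive block of experiment and treatment neither gene passed (adjusted p 1.00 for both by edgeR), nor with length and GC offsets (0.234 for RGPD5 and 0.999 for VASN). RGPD5 (chr2:109792758-109857705) is one of a family of genes derived from RANBP2 that lie close together on the chromosome. It stood at 6.73 and 4.82 CPM in the short-pulse and at 12.4 and 9.26 CPM in the long-pulse DMSO libraries. In Mps1i it stood at 0.915 and 9.32 CPM after the short and at 0.618 and 5.14 CPM after the long pulse, so that the experiments differed by more than the pulses there. The Mps1i pair of experiment 1 held only 61 and 41 counts of RGPD5, short pulse first, while the other libraries held 498 to 1363. The difference between treatments was -1.66 (SE 0.20, adjusted p 0.0390 by edgeR).

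The sequences show how little separates RGPD5 from its copies. In the GENCODE v44 models on GRCh38 the coding sequence of RGPD5 has 5295 bases, RGPD6 differs from it at 0 of them and RGPD8 at 10, and 100% and 92.4% of its 5246 coding windows of 50 bases, the length of a read end, also occur in RGPD6 and RGPD8. The first coding bases, in exon 1 of each gene, are shown because they are one such shared window, at chr2:109794466-109794515 (plus strand) in RGPD5, chr2:110576975-110577024 (minus strand) in RGPD6 and chr2:112433404-112433453 (minus strand) in RGPD8.
RGPD5, RGPD6 and RGPD8: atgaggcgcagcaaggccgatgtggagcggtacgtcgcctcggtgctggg
A window in exon 6, at chr2:109808775-109808824 in RGPD5, chr2:110562683-110562732 in RGPD6 and chr2:112417264-112417313 in RGPD8, holds 1 of the differing bases, in capitals. It is A25G, counted from 1 at the 5′ end of the window, with the base of RGPD5 first.
RGPD5 and RGPD6: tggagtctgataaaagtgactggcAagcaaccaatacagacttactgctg
RGPD8: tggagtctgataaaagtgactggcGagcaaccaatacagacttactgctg

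When the CPM of RGPD5, RGPD6 and RGPD8 were summed, the differences shrank. The sum stood at 23.0 and 23.2 CPM in the short-pulse and at 21.4 and 25.2 CPM in the long-pulse DMSO libraries, and at 21.4 and 21.9 against 20.0 and 25.6 CPM in Mps1i. Its pair differences were -0.10 and 0.12 in DMSO and -0.094 and 0.23 in Mps1i, with the sign following the experiment and not the treatment. RGPD5 alone gave 0.88 and 0.94 in DMSO and -0.55 and -0.86 in Mps1i, and RGPD6 alone gave -1.07, -0.44, -0.088 and 0.97 in the same order. In the micronucleus table RGPD5 differed by 4.39 and 0.36 in MN- and by -3.68 and 1.63 in MN+.

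VASN encodes vasorin, a membrane protein that binds TGF-beta. It stood at 72.0 and 60.9 CPM in the short-pulse and at 103 and 67.4 CPM in the long-pulse DMSO libraries, and at 43.4 and 58.4 against 29.2 and 32.3 CPM in Mps1i. In Mps1i both long-pulse libraries lay below both short-pulse libraries, and in DMSO the pulse groups overlapped. The pair differences were 0.51 and 0.14 in DMSO and -0.57 and -0.85 in Mps1i, and the difference between treatments was -1.04 (SE 0.13, adjusted p 0.0390 by edgeR). VASN (chr16:4371848-4383538, plus strand) lies inside CORO7 (chr16:4354542-4425705, minus strand), and none of its sampled transcript windows occurs in another gene on the same strand. CORO7 was lower after the long pulse in all 4 pairs. In the micronucleus table, where all cells had Mps1i, VASN differed by -0.34 and -0.20 in MN- and by -0.020 and 0.49 in MN+.

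**Figure D5:**
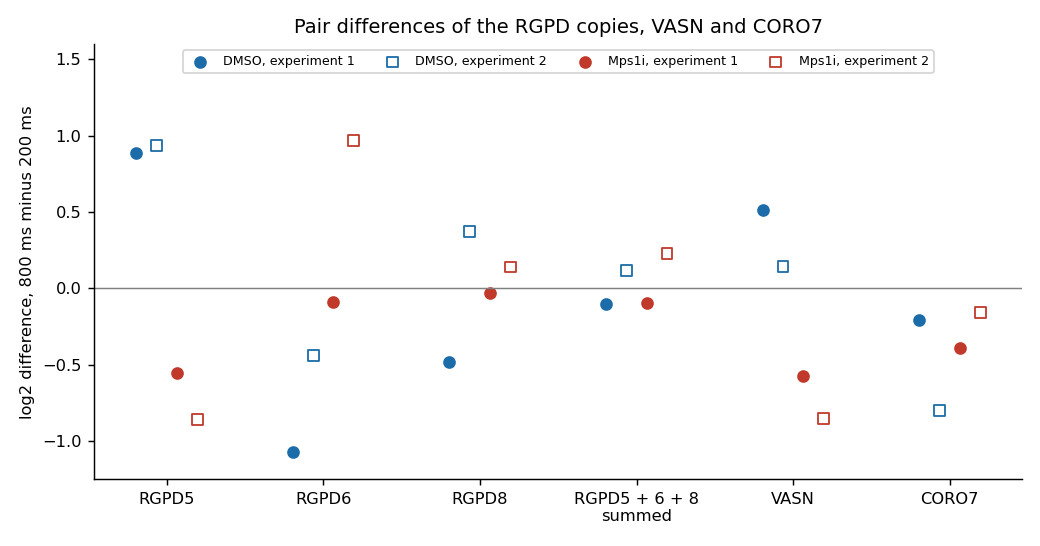
Log2 difference, 800 ms minus 200 ms (vertical), in each of the 4 pairs (blue DMSO, red Mps1i; circles experiment 1, squares experiment 2) for RGPD5, RGPD6, RGPD8, their summed CPM, VASN and CORO7. RGPD5 and VASN are above 0 in both DMSO pairs and below 0 in both Mps1i pairs, and the RGPD sum stays between -0.10 and 0.23.

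Between experiments the pulse effect differed in 1 gene of 10577 (0.00945%), with 779 (7.37%) at an unadjusted p under 0.05, 4.93% higher and 2.44% lower. DESeq2 called 17 and limma-voom 1. The called identifier, ENSG00000231115, is named RING1 in the study's tables and lies outside the primary annotation. It had 0 counts in both short-pulse libraries of experiment 1 and 346 (DMSO) and 439 (Mps1i) in the long-pulse ones. In experiment 2 it had 448 and 607 counts in DMSO and 983 and 928 in Mps1i, short pulse first. The 2 libraries at 0 are thus the short-pulse libraries of experiment 1, and the 6 others hold 346 to 983 counts. In all, 14 genes had a count of 0 in at least 1 library.

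The identifiers that the study's own pulse comparison in DMSO lists were followed through all pairs, with their values there already seen. The paper names DDX39B, FASN and RGPD6 as lower by over 1.5-fold at 800 ms there, from another test with shrunken fold changes. In DMSO here the fitted differences were -0.11 (SE 0.091) for FASN and -0.74 (SE 0.22) for RGPD6. For DDX39B they were -0.033 (SE 0.055) under the annotated identifier and -1.28 (SE 0.34) under its copy. BAG6, a chaperone of newly made membrane proteins, stood at 11.1 and 6.98 CPM in the short-pulse and at 18.01 and 12.4 CPM in the long-pulse DMSO libraries, with pair differences of 0.70 and 0.83, and of -0.26 and 0.55 in Mps1i. FASN, the fatty acid synthase, differed by -0.023 and -0.19 in DMSO and by 0.022 and 0.16 in Mps1i. PRPF8, a core protein of the spliceosome, occurs under 2 identifiers. The annotated one differed by -0.60 and 0.077 in DMSO and by -0.42 and 0.33 in Mps1i, its copy ENSG00000274442 by 0.79 and 0.66 and by 1.29 and -0.52. Their sum differed by -0.26, 0.22, -0.023 and 0.10 in the same order, so the opposite shifts of the copies largely cancelled in experiment 1 of Mps1i. DDX39B, an RNA helicase of mRNA export, stood between 134 and 155 CPM in all 8 libraries and differed by -0.033 (95% interval -0.106 to 0.039). Its copy ENSG00000215425 stood between 1.13 and 9.74 CPM and was lower in 4 of 4 pairs (-1.01, SE 0.27, adjusted p 1.00 by edgeR). That copy is not in the micronucleus table. Of the identifiers of that comparison that are in both tables, CDKN1A was the one that kept its sign in all 8 pairs.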

How the data were processed

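RNA had been amplified with SMART-Seq v4 and sequenced as paired 50-base ends. The authors deposited estimated counts per gene, rounded to whole numbers, made with Salmon 1.2 against hg38, corrected for GC bias and imported through tximeta, and kept genes that reached 700 counts in 2 samples. The submitters' processing notes also name bcl2fastq 2.20. Transcript-level estimates were not used here.

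Library totals ranged from 65608678 to 145242185 counts. These deposited estimated counts went into edgeR 4.0.16 (TMM scaling, quasi-likelihood F test, R 4.3.3) with 4 blocks of experiment by treatment. Pairing comes from the dates in the sample titles. The fit over both treatments had 3 residual degrees of freedom, and fits with a pulse term per treatment or experiment had 2. Benjamini-Hochberg adjustment ran over 10577 genes at 0.05. Standard errors divide each fold change (log2) by the root of its F value, intervals use the t distribution with edgeR's total degrees of freedom, and pair differences use log2 CPM with a prior count of 2. Over 4 pairs an exact test cannot go below p = 0.125. No label places the libraries in separate cultures beyond the 2 experiments, so the spread behind a p-value may be partly technical. Alternatives were DESeq2 1.42.0, limma-voom (limma 3.58.1), no or another block, other scaling, filters, length and GC offsets, copies summed or left out, treatments or experiments alone, and each library left out. The list medians under these and the RGPD sum were added after seeing the data. Windows were 1 in 16 of the 50-base windows of GENCODE v44 transcripts, same strand. Of 297 identifiers outside that annotation 23 take a name from the study's tables.

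Named genes were up to 10 per direction past the threshold over both treatments, filled to 5 by smallest p among genes of one sign in 4 pairs, at most 5 per direction called in each other contrast, the identifiers of the study's pulse table, and per list the 2 of smallest p and the 2 of highest level. Further list members, RGPD8 and those shared by both tables were named after their values were seen. Lists and members were chosen with earlier results of these data known. Python 3.11.15 prepared the tables. The rupture libraries were not used here, and the values of some named genes are not reported here.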

Additional observations from a re-analysis of the deposited data

Results flagged for a closer look

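The pulse difference itself differed between the treatments for 2 genes by the test of the difference of pulse terms. RGPD5 had a value of -1.66 on the log2 scale, Mps1i minus DMSO, and moved up in both DMSO pairs and down in both Mps1i pairs. Summed with RGPD6 and RGPD8 it did not follow the treatment. VASN had a value of -1.04, with the same arrangement of signs, and CORO7, which spans it on the opposite strand, was lower in all 4 pairs. Where the kit does not mark strand, reads from overlapping genes on opposite strands cannot be told apart, and the part of this in the value was not tested. With CORO7 added, the differences were 0.38 and -0.030 in DMSO and -0.51 and -0.64 in Mps1i.

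ENSG00000231115 differed between the experiments by the same kind of test. Its fitted value of -12.1, experiment 2 minus experiment 1, rests on 2 libraries with 0 counts and is not a measure of size.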

How the results depend on the processing

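The calls were few under every alternative that kept all 8 libraries, and their number depended on the fit. Over both treatments 1 gene was called, against 0 with no replicate block, 2 with DESeq2, 0 with a mean of at least 2000 counts, 0 with length and GC offsets, 0 with identifiers outside the annotation left out, 5 in experiment 1 alone, 2 in experiment 2 alone and 0 to 3 without 1 library. In DMSO the count of 0 became 7 with DESeq2, 4 with a mean of at least 2000 counts, 4 without identifiers outside the annotation, 23 in the 4 libraries alone, 6 with DESeq2 on these without the block, and 10 to 77 without 1 library. In Mps1i the count of 0 became 6, 5, 2, 19, 3 and 12 to 33 under the same settings. The difference between treatments gave 2 calls, 0 with no or with an additive replicate block, 5 with a mean of at least 2000 counts, 0 with offsets and 8 to 59 without 1 library. The difference between experiments gave 1 call, 17 with DESeq2, 0 with a mean of at least 2000 counts, 2 with offsets, 2 with copies summed, 0 without identifiers outside the annotation and 4 to 553 without 1 library, the highest without the Mps1i 800 ms library of experiment 1. In DMSO the highest count came without the 800 ms library of experiment 2, and in Mps1i without the 200 ms library of experiment 2. The cause of these shifts was not tested. Leaving out a library leaves 1 or 2 residual degrees of freedom. These fits keep a block per pair, so the remaining library of that pair adds nothing to the pulse effect. The 8 fits are thus in effect 4, each without 1 pair.

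CDKN1A stayed between 0.21 and 0.30 under 12 other settings, past the threshold in 1 of them, and between 0.22 and 0.28 without 1 library (adjusted p 0.0588 to 0.507 by edgeR). ENSG00000282725 stayed between 0.58 and 0.65, past the threshold in 6 of 10 other settings and in 2 of 8 fits that left out a library. The median of the p53 list was 0.080 in experiment 1 alone. With no replicate block the differences were 0.26 for CDKN1A, 0.63 for ENSG00000282725, -1.73 for RGPD5 and -1.08 for VASN, all with an adjusted p of 1.00 by edgeR. RGPD5 passed in 6 of 9 other settings and VASN in 7 of 10. The 5 genes and 2 list medians recomputed under the alternatives kept their direction. The balance of calls did not: between experiments it went from 0 higher and 1 lower to 13 and 4 with DESeq2 and to 428 and 125 without the library named above, and between treatments from 0 and 2 to 35 and 24 without the DMSO 200 ms library of experiment 2.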
